A study of Mus musculus with 20 samples.

Results

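The comparison described here sets growth cones against neuronal cell bodies (somata) in mice null for Bcl11b. Its members are 10 of the 20 RNA libraries of the study, chosen by the group names in their titles: 5 growth cone libraries labelled KO, numbered 7, 8, 9, 10 and 11, and 5 soma libraries labelled KO, numbered 14, 15, 22, 25 and 26. The labels give mouse pups at postnatal day 1, the genotype Bcl11b KO and the cell type subcerebral projection neuron for all 10. Somata were taken from cortex, and growth cones from brainstem and spinal cord. The other 10 libraries, 5 of growth cones and 5 of somata, are wild-type (WT) and serve only for the comparison of genotypes near the end. The labels state neither the allele, nor whether Bcl11b was deleted in all cells or in some, nor how many animals entered a library, nor how the labelled neurons and their growth cones were isolated. Per the labels' protocols, a soma library was made from 1.8 to 3.1 ng of RNA and a growth cone library from 0.19 to 3.1 ng. Nothing in the labels says that libraries of a group came from separate litters, so p-values measure the spread between these libraries.

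Subcerebral projection neurons are the cortical neurons of layer V that send axons to the brainstem and the spinal cord, and Bcl11b (also called Ctip2) encodes a zinc finger transcription factor required for the growth of those axons. A growth cone is the motile tip of a growing axon. It lies far from the nucleus, carries ribosomes and mRNAs delivered along microtubules, and makes part of its protein locally. Which mRNAs are abundant at the tip, compared with the cell body of the same class of neuron, therefore describes the pool from which a growing axon can translate.

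The values are raw read counts per gene, scaled here to library size as CPM with TMM factors. Where genes are compared with each other, levels are given per length as TPM, in which every library sums to the same total. Of 55487 genes in the deposited table, 15410 passed a filter on low counts and were tested with edgeR's quasi-likelihood F test over the 10 libraries. All adjusted p-values for single genes come from this test with Benjamini-Hochberg adjustment, and a gene is called at an adjusted p under 0.05. Differences are log2 fold changes of growth cones over somata with their standard error (SE).

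Bcl11b itself was first compared in every library. Growth cones labelled KO had 72.3, 74.9, 144, 90.3 and 145 CPM in libraries 7 to 11, and somata labelled KO had 1152, 1117, 1098, 1050 and 1202 CPM in libraries 14, 15, 22, 25 and 26. The groups did not overlap, and Bcl11b differed by -3.48 (growth cones minus somata) on the log2(CPM + 0.5) scale (exact permutation test, two-sided, n = 5 against 5, p = 0.00794, the smallest this design allows; 0.0159 after adjustment over 6 single measures). Scaled to library totals alone, WT somata held 494 to 780 CPM of Bcl11b and somata labelled KO 1023 to 1151 CPM, so the count in the libraries labelled KO was not below that in WT. The table counts whole genes, and the labels do not say which exons were deleted, so this count does not check the deletion, and the genotype is used as labelled.

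The somata carried the markers of deep-layer cortical neurons: Ldb2 was at 521 CPM (SD 49.7, n = 5), Fezf2 at 353 CPM (SD 24.4) and Sox5 at 346 CPM (SD 42.7). Total counts were 35243688 to 51205154 per soma library and 21657575 to 27723067 per growth cone library, a log2 difference of -0.75 (exact permutation test, p = 0.00794, adjusted p = 0.0159). The number of genes with at least 1 count averaged 18486 in growth cones and 19105 in somata (exact permutation test, p = 0.302, adjusted p = 0.362). Growth cone libraries were the more variable: Spearman correlations across genes were 0.780 to 0.890 among growth cones and 0.952 to 0.964 among somata, and the median SD of log2(CPM + 0.5) over 6137 well-expressed genes was 0.518 in growth cones and 0.211 in somata.

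Transcripts of other cells were measured in the same libraries, because the 2 sources are different tissues. Genes of 10 lists of other cells and regions, 193 genes together, took 0.821% to 1.11% of counts in growth cones and 0.23% to 0.332% in somata. Hox genes, which pattern hindbrain and spinal cord and are silent in forebrain, summed to 167.8, 370.2, 145.3, 312.9 and 370.2 CPM in growth cone libraries 7 to 11. The same 39 genes summed to 0.0851 to 0.18 CPM in somata, with 8 of the 39 at 0 in all 10 libraries. Hoxc8 had 13.2, 12.3, 10.8, 24.8 and 43.2 CPM in growth cones and no count in any soma library, at least 279-fold higher against a floor of 3 counts per library. Hoxa5 and Hoxb5 were at least 468-fold and at least 413-fold higher by the same floor.

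Glial, blood and inhibitory markers differed between the compartments as well. Astrocyte markers summed to 3391 to 4590 CPM in growth cones and 542.8 to 1136 CPM in somata, with 12 of 20 tested genes higher and 0 lower; Fabp7, a fatty acid-binding protein of radial glia and astrocytes, had 801 to 1549 CPM against 35.1 to 103. Oligodendrocyte markers summed to 854.4 to 2214 CPM against 194.3 to 293.3, with 10 of 13 tested genes higher and 18 listed. Myelin basic protein Mbp was the most variable of them in growth cones, at 582, 956, 1226, 497 and 347 CPM. Blood markers had 6 of 7 tested genes higher (346.3 to 766.7 CPM summed, against 36.7 to 53), with 10 listed. Choroid plexus and meninges markers had 11 of 13 tested genes higher and 1 lower, with 19 listed. Inhibitory neuron markers had 14 of 15 tested genes higher and 1 lower, with 16 listed. The glutamate decarboxylase gene Gad2 had 65.7 to 136 CPM in growth cones and 1.23 to 5.16 in somata, and somatostatin (Sst) had 93.2 to 246 against 1.03 to 7.08, whereas neuropeptide Y (Npy) was lower, at 92 to 280 against 381 to 496.

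The list of markers of brainstem and spinal cord neurons held 24 genes, of which 10 were tested. Of these 10, 6 were higher, among them the vesicular glutamate transporter Slc17a6 at 47.2 to 83.7 CPM against 1.47 to 4.03. A marker with few counts in somata could pass the low-count filter only through growth cones. The counts of higher genes in the lists of other cells therefore depend on that filter. Microglia markers overlapped between the compartments (68.1 to 167 CPM in growth cones, 50.9 to 203 in somata; 2 of 12 higher), and so did vessel markers (540 to 754 against 382 to 569; 3 of 14 higher). Of 16 tested genes of cycling cells 7 were higher and 2 lower. In such bulk libraries, fewer cells of a type and less RNA per cell cannot be told apart. The part of these transcripts in the differences below was not tested. With the genes of these lists left out of the scaling, 5953 genes were called between the compartments, against 5948 with them.

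**Figure D1:**
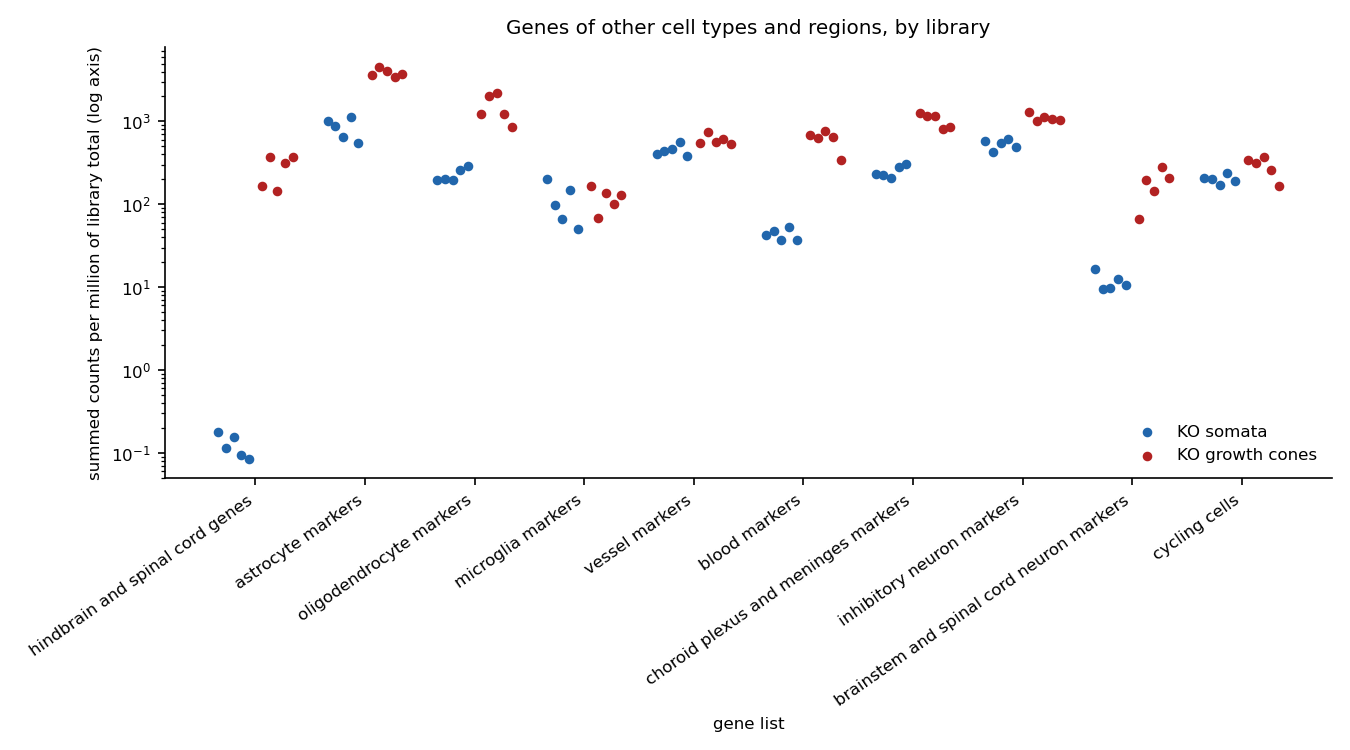
Summed CPM of library totals (log axis) for each list of genes of other cell types and regions; each point is 1 library, blue for KO somata and red for KO growth cones. Hox genes sum to at most 0.18 in somata and at least 145.3 in growth cones, whereas microglia and vessel markers overlap.

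Of the 15410 genes tested, 3328 were higher in growth cones (21.6% of those tested) and 2620 were lower (17.0%). At least a 2-fold change was reached by 2977 of the higher and 2052 of the lower genes. The 5 growth cone libraries and the 5 soma libraries did not overlap for 5575 genes (36.2%), 2872 of them higher and 2703 lower in growth cones. The median log2 fold change over all tested genes was 0.11.

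The 2 genes with the highest TPM in growth cones encode the subunits of ferritin, the cage protein that stores iron: Ftl1, the light chain, and Fth1, the heavy chain with the ferroxidase site. Translation of both is known to be held back at low iron by iron regulatory proteins, which bind a hairpin in the 5′ part of the mRNA, the iron-responsive element. The hairpin was looked for on the transcript strand in the first 200 bases of 21291 protein-coding transcripts of GENCODE release M21 (1 per gene), as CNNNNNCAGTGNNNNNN in which the 5 bases before the loop pair with the 5 after it, G with U allowed. It was found in 19 transcripts (0.0892%), among them both ferritin chains and 2 other genes of iron and heme, Slc40a1 (the iron exporter ferroportin) and Alas2 (heme synthesis in red cells). The 4 sites are shown because they are what the ferritin mRNAs share beyond their function, with the loop in capitals.
Ftl1: tcttgcttcaaCAGTGTttgaacggaacag
Fth1: tcctgcttcaaCAGTGCttgaacggaaccc
Slc40a1: aacttcagctaCAGTGTtagctaagtttgg
Alas2: tggttcgtcctCAGTGCagggcaacaggac
A match is a description of the letters, not evidence of binding.

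Ftl1 (chromosome 7, 45457944 to 45459884, minus strand, GRCm38) had 34310, 17793, 32197, 16854 and 23041 CPM in growth cone libraries 7 to 11 and 1468, 1510, 1591, 1551 and 1653 CPM in somata 14, 15, 22, 25 and 26. Every growth cone library was far above every soma library. The ratio of means was 15.98 (log2 3.998 ± 0.22 SE, adjusted p = 2.95e-07). Fth1 (chromosome 19, 9980598 to 9985098, plus strand) had 31160, 16512, 28280, 13331 and 25681 CPM in growth cones against 748, 707, 778, 805 and 789 in somata. Its difference was larger, 30.05-fold (log2 4.91 ± 0.25, adjusted p = 1.92e-07). Libraries 8 and 10 were the lower ones for both chains, and no library of one compartment reached the other. Per length, Ftl1 stood at 47055 TPM in growth cones and 3864 in somata. A small transcript annotated on the opposite strand overlaps Ftl1, and reads shared with processed pseudogenes of either chain cannot be told apart here.

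Among the other genes with the hairpin, those on chromosome 18 left aside, Dtd2 was called higher (log2 1.27). Nfib (-1.46), Tmem214 (-0.88) and Eif2s1 (-0.77) were called lower. The others tested, Slc40a1 and Alas2 among them, were not called. Slc40a1 averaged 12.4 CPM (SD 14) in growth cones and 11.8 (SD 5.95) in somata (log2 0.07 ± 1.10, adjusted p = 0.969). Alas2 averaged 11.3 CPM (SD 13.2) against 0.45 (SD 0.682) and was not called (adjusted p = 0.0975). Of the 18 tested genes of the ferritin and iron list 6 were higher and 4 lower. Beside the 2 ferritin chains, the higher genes were Pcbp2, an RNA-binding protein that also carries iron to ferritin (log2 3.08), and genes of iron-sulfur cluster assembly, among them Iscu (1.70) and Glrx5 (1.29). The lower genes were the ferritin receptor of autophagy Ncoa4 (-2.70), the transferrin receptor Tfrc (-1.19), the heme oxygenase Hmox2 (-1.17) and Aco1 (-1.03), which encodes iron regulatory protein 1. Under 11 alternatives, length offsets and the omission of any 1 soma library among them, 2 genes of the list were lower in place of 4. Hmox2 and Aco1 were called lower under all 21 alternatives, so the calls lost were those of Ncoa4 and Tfrc.

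Among higher genes with a change of at least 2-fold and no overlap of single libraries, 8 were named by TPM, the ferritin chains leading; the others were of varied function. Ybx1, a cold-shock protein that packages mRNA, had 14714, 9870, 9152, 11032 and 12756 CPM in growth cones and 830, 822, 939, 978 and 1026 in somata. The ratio was 12.52, with the smallest SE among these genes (log2 3.65 ± 0.15, adjusted p = 1.2e-07). Ppp1r1a, an inhibitor of protein phosphatase 1, had 2867, 2028, 2686, 1500 and 2782 CPM against 99.9, 127, 124, 114 and 122, a ratio of 20.23 (log2 4.34 ± 0.20). Selenow, a small selenoprotein, was at 1869 to 6501 CPM against 498 to 592 (log2 3.02 ± 0.30). Tmsb10, a thymosin that holds actin monomers, was at 1146 to 5526 against 321 to 407 (log2 3.30 ± 0.34). Both had their lowest growth cone value in library 10. The imprinted gene Nnat (log2 2.99 ± 0.22) and the AMPA receptor auxiliary subunit Cnih2 (2.19 ± 0.16) completed the 8; Cnih2 overlaps Yif1a on the opposite strand, and whether counting used strand is not stated.

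By the same limits (at least 2-fold, no overlap), 7 of the 8 lower genes with the highest TPM were cytoskeletal. Tuba1a, the main alpha-tubulin of developing neurons, had 10116, 6102, 8921, 7766 and 6815 CPM in growth cones and 23499, 29603, 34186, 28316 and 37818 in somata. It was the gene with the highest TPM in somata, 56431 against 11438 in growth cones, and was 3.863-fold lower in growth cones (log2 -1.95 ± 0.17, adjusted p = 6.79e-06). Tubb2a had 760, 796, 940, 786 and 1029 CPM against 3693, 4629, 4535, 4172 and 4545 (log2 -2.32 ± 0.12). The others of the 8 were Tubb2b (-2.36), Tubb3 (-1.85), Tubb5 (-1.79), the tubulin-sequestering stathmin Stmn1 (-1.62), beta-actin Actb (-1.47) and the polyubiquitin gene Ubb (-1.04). No overlap of libraries was a condition of this choice, so it is not a further result for these 8.

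Some abundant mRNAs of growing axons differed by less than 2-fold between the compartments. Gap43, the growth-associated membrane protein, had 2183 to 2537 CPM in growth cones and 2586 to 3069 in somata (log2 -0.26, 95% interval -0.47 to -0.05, adjusted p = 0.0547); its libraries did not overlap, and it was called lower under 9 of 21 alternatives. Marcksl1, which links actin to the membrane, had 1936 to 2391 against 2086 to 2477 (log2 -0.04, interval -0.26 to 0.18, adjusted p = 0.81) and was called lower with length offsets. Calm2, a calmodulin gene, was slightly lower (log2 -0.32, interval -0.56 to -0.08, adjusted p = 0.0365), a call that is lost under upper-quartile scaling and scaling to library totals, among other alternatives.

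**Figure D2:**
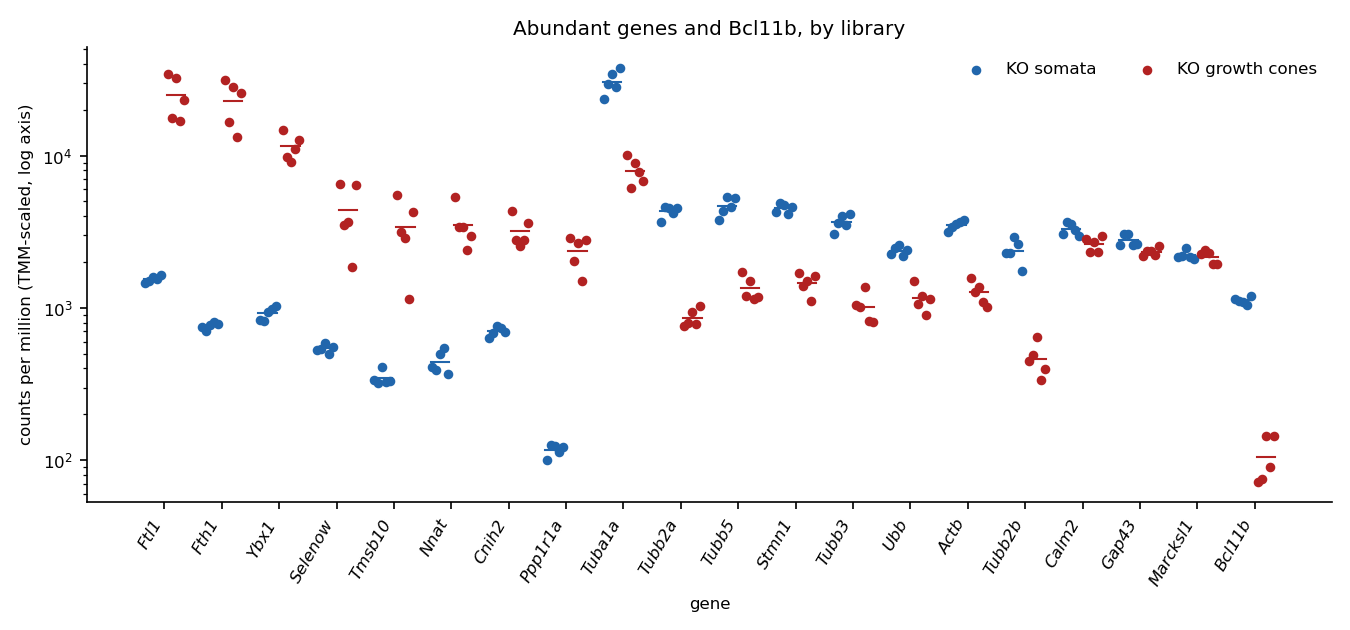
TMM-scaled CPM (log axis) of the 8 higher and the 8 lower genes with the highest TPM among those changed at least 2-fold with no overlap of libraries, 3 level genes and Bcl11b; each point is 1 library, blue for KO somata and red for KO growth cones, and lines are means. Ftl1 and Fth1 sit at 13331 or more in every growth cone library, and Marcksl1 overlaps.

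Gene length separated the compartments across the whole table. The length of a gene is that of its annotated exons together, which can exceed the length of the mRNA expressed. The TPM-weighted median gene length, the length below which genes hold 50% of all TPM, averaged 1880.2 bases in growth cones (SD 208, n = 5) and 2780.0 bases in somata (SD 68.2), a log2 difference of -0.57 (two-sided exact permutation test, p = 0.00794, adjusted p = 0.0159). Growth cone library 10 was the longest at 2242 bases, and the other growth cone libraries were at 1713 to 1840. When tested genes were split into 5 bins of 3082 genes by their length in the table, the median log2 fold change was 1.56 in the shortest bin (median length 958 bases), 0.35 in the second, -0.22 in the third, -0.38 in the fourth and -0.37 in the longest (median 9629 bases). In the shortest bin 47.6% of genes were higher and 3.18% lower, and in the longest bin 10.1% were higher and 24.7% lower. Processed pseudogenes, most of them short, were higher in 639 of 1268 cases (50.4%), and protein-coding genes in 18.5%, with 19.7% lower. Gene lists are therefore set against the same length bins below, and against a fit in which offsets removed the trend of each library with length; that fit called 2996 genes higher and 2100 lower.

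**Figure D3:**
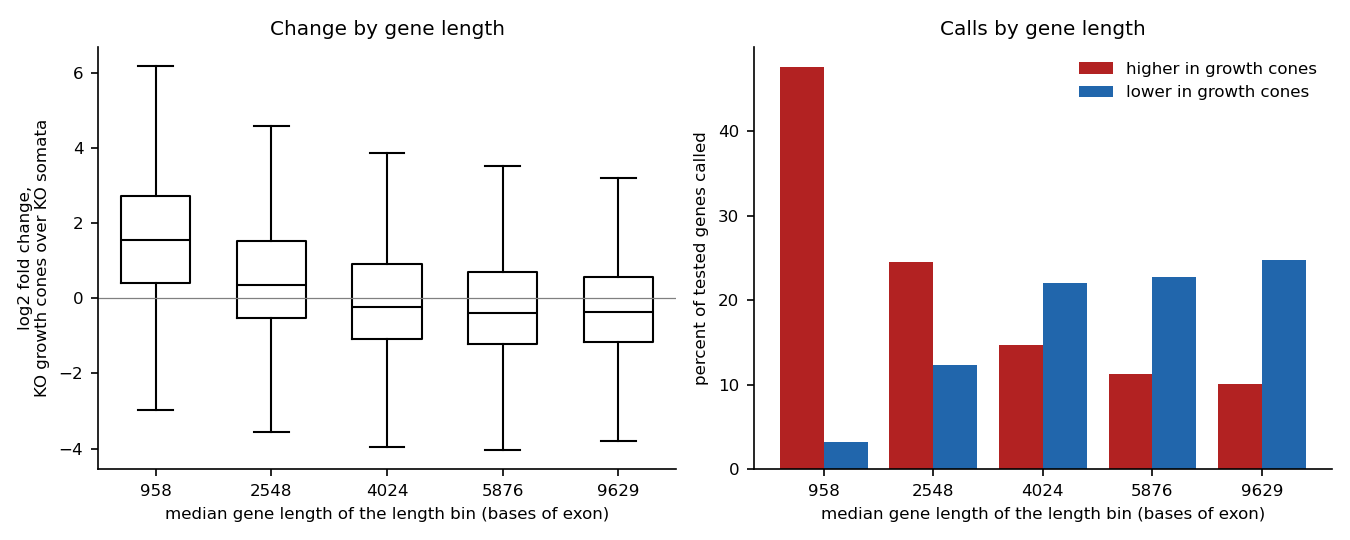
Left, log2 fold change of tested genes in 5 equal length bins (boxes are quartiles, lines medians, whiskers reach 1.5 interquartile ranges, points beyond are not drawn); right, percent of genes called in each direction per bin. The median falls from 1.56 in the shortest bin to -0.37 in the longest.

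Nearly all cytosolic ribosomal protein genes were higher. Of 81 tested cytosolic ribosomal protein genes 77 were higher in growth cones and 0 lower, with a median log2 fold change of 1.99, where all tested genes had 0.11. They summed to 28520 to 52320 CPM in growth cones and 8830 to 10340 in somata. The laminin receptor gene Rpsa, a 40S subunit protein, had 2069, 1504, 2121, 1297 and 1654 CPM against 252, 277, 283, 279 and 313 (log2 2.62 ± 0.15, adjusted p = 4.33e-07). Rpl27a of the 60S subunit was at 143 to 249 CPM against 29.3 to 36.5 (log2 2.71 ± 0.17). The 4 members not called were Rpl7l1, Rpl5, Rpl36al and Rps10. Of the 11 ribosomal genes in the 3 longer bins 9 were higher, where 1107 of 9246 genes in all were, and 71 of 81 were higher in the fit with length offsets, where the list's median was 1.398. Ribosomal genes have many processed pseudogenes, and of 106 tested pseudogenes named for them 93 were higher as well, so how reads were divided between copies is uncertain.

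Mitochondrial ribosomal proteins, which serve the separate ribosome of that organelle, had 42 of 77 tested genes higher and 1 lower, the 1 being Mrpl3, a call lost under several alternatives; with length offsets 31 were higher and 7 lower. Mrpl30 had 225 to 482 CPM in growth cones against 63.4 to 79.8 (log2 2.34 ± 0.19), and Mrps24 had 177 to 401 against 46.3 to 64 (log2 2.50 ± 0.23). Translation factors went both ways, 16 of 61 higher and 21 lower. Eef1a1, the elongation factor that brings aminoacyl-tRNA to the ribosome, was higher (2585 to 3272 CPM against 1022 to 1471, log2 1.23 ± 0.12), as was the start-site factor Eif1b (log2 3.14 ± 0.21, overlapped on the opposite strand). The helicase Eif4a1 (log2 -1.60 ± 0.17) and the initiation factor subunit Eif3l (-1.91 ± 0.14) were lower. The higher factors had a median length of 2649 bases and the lower ones 4968, and with length offsets 17 were higher and 12 lower.

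Energy genes were divided between genomes and between subunits. Of 81 tested nuclear genes of the respiratory chain and ATP synthase 56 were higher and 9 lower, with a median log2 fold change of 1.12. Cox8a, a small subunit of cytochrome oxidase, had 1073, 830, 854, 390 and 1045 CPM in growth cones and 115, 127, 149, 126 and 130 in somata (log2 2.69 ± 0.24, adjusted p = 7.76e-06). The ATP synthase coupling subunit Atp5j was at 496 to 1026 CPM against 144 to 178 (log2 2.26 ± 0.18); Gabpa lies on its opposite strand. Among the 9 lower genes were Ndufs1 (-2.50) and Ndufv1 (-1.55) of the complex I core with the accessory Ndufa9 (-0.64), Sdha of complex II (-1.99), Uqcrc1 (-2.20) and Uqcrc2 (-1.49) of complex III, and Atp5b (-1.60) and Atp5a1 (-1.39), the beta and alpha chains of ATP synthase. Uqcrc1 had 146, 154, 215, 127 and 188 CPM in growth cones against 650, 750, 840, 783 and 791 in somata, with no overlap.

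The higher members of this list had a median length of 1271 bases and the lower ones 3135. In the shortest bin 37 of 44 were higher, where 47.6% of all genes were, and 0 were lower. With length offsets 30 were higher and 19 lower. The 12 tested genes encoded in the mitochondrial genome had none called in either direction; mt-Cytb was at 662 to 1906 CPM in growth cones and 1346 to 1762 in somata. With length offsets 10 of these 12 were lower, and their median went from -0.04 to -1.30. The mitochondrially encoded share of counts was 0.434% (SD 0.15) in growth cones and 0.466% (SD 0.0461) in somata (exact permutation test, p = 0.635, adjusted p = 0.635).

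Of 16 glycolytic genes 6 were higher and 9 lower. The aldolase Aldoc, also an astrocyte marker, had 205 to 300 CPM in growth cones against 19.8 to 43.4 (log2 3.04 ± 0.25). Phosphofructokinase Pfkl had 25.5 to 47.4 against 217 to 237 (log2 -2.60 ± 0.18), and the lactate dehydrogenase Ldha was at 404 to 518 against 1011 to 1332 (-1.40 ± 0.12).

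Protein folding and turnover ran opposite to the ribosome. Of 37 tested proteasome genes 21 were lower and 1 higher, of 20 chaperone genes 16 were lower and 2 higher, and of 18 ubiquitin genes 10 were lower and 6 higher. Psmd2, a scaffold of the 19S cap, had 119, 85, 152, 89.5 and 120 CPM in growth cones against 760, 900, 938, 793 and 851 in somata (log2 -2.91 ± 0.17, adjusted p = 4.8e-07). The segregase Vcp had 124, 88.5, 120, 83.7 and 103 against 720, 739, 789, 709 and 765 (log2 -2.84 ± 0.14, adjusted p = 1.66e-07). The constitutive Hsp70 gene Hspa8 had 438, 385, 393, 426 and 594 against 2011, 2350, 2704, 2734 and 3100 (log2 -2.53 ± 0.16). For these 3 genes the compartments did not overlap.

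Within the chaperonin TRiC, which folds tubulin and actin, 7 of the 8 subunits in the list were lower, from Cct6a (-1.17) to Cct7 (-2.20), and Cct2 was not called (0.03). The ubiquitin-activating enzyme Uba1 was lower (log2 -2.57 ± 0.20). The exceptions in the other direction were Psmb10, an immunoproteasome subunit (1.76 ± 0.27), the cochaperones Hspe1 (1.62 ± 0.25) and Ptges3 (0.76 ± 0.15), the shuttle Ubqln2 (1.45 ± 0.21) and Sumo2 (1.27 ± 0.21). Short proteasome genes were lower as well: of 7 in the shortest bin 4 were lower, where 3.18% of all genes there were lower, and Psmb5, with 899 bases, had 40.3 to 76.6 CPM against 181 to 249 (log2 -1.86 ± 0.20).

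**Figure D4:**
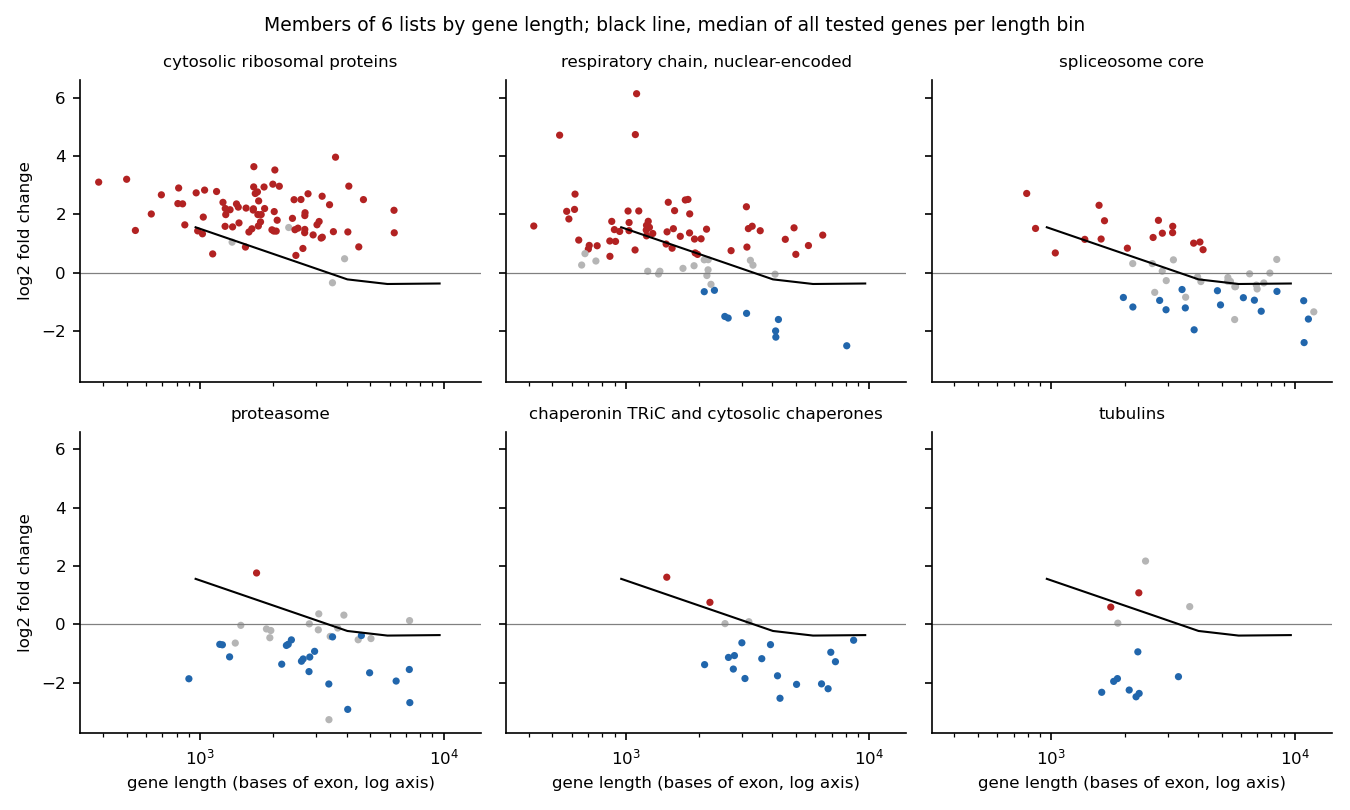
Log2 fold change of each tested member against gene length (log axis) for 6 lists; red, higher; blue, lower; grey, not called; the black line joins the medians of all tested genes per length bin. Ribosomal proteins lie mostly above the line and proteasome, chaperone and most tubulin genes below it, whereas the respiratory chain and spliceosome run down with length.

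The microtubule genes beyond the abundant tubulins were lower too. Of 13 tested tubulin genes 8 were lower and 2 higher, with a median of -1.79 although their median length is 2228 bases, in the second bin, where the median of all genes was 0.35. The most changed was Tubb4a, at 141, 168, 246, 172 and 205 CPM against 1008, 1028, 1121, 1056 and 974 (log2 -2.48 ± 0.15). Tuba1b was not called (0.04), and the calls of Tuba1c and the gamma-tubulin Tubg2 as higher were lost under several alternatives; alpha-tubulin genes are near-identical, so reads may be divided between them. All 5 collapsin response mediators, which bind tubulin dimers, were lower: Dpysl3 (-2.10 ± 0.10), Crmp1 (-2.04 ± 0.11), Dpysl5 (-2.02), Dpysl4 (-1.50) and Dpysl2 (-0.57). Crmp1 was at 1171 to 1576 CPM in growth cones and 5039 to 5706 in somata.

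Of 28 microtubule-associated proteins and stathmins 16 were lower and 4 higher. Map1b, the main such protein of young axons, had 1042, 1109, 1246, 927 and 1309 CPM in growth cones against 6433, 4701, 5012, 5631 and 5258 (log2 -2.26 ± 0.13). Its relative Map1a went the other way, 83.8 to 144 against 20.2 to 28.1 (log2 2.30 ± 0.20), with Ppip5k1 on the opposite strand. Map1lc3a, the autophagy protein LC3, was higher (1.16 ± 0.19), a call lost with length offsets. Map2 (-1.39), Mapt, which encodes tau (-1.07), and doublecortin, Dcx (-1.53), were lower.

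Actin genes were divided. Of 48 tested genes of actin and the membrane cortex 16 were higher and 19 lower. Monomer-binding Tmsb10 was described above, and Tmsb4x followed it at lower fold (log2 1.29 ± 0.27). The barbed-end elongator Evl had 1336, 801, 671, 1275 and 1048 CPM in growth cones against 210, 194, 195, 193 and 206 in somata (log2 2.36 ± 0.19), and the recycling factor Cap1 was at 104 to 222 against 14.7 to 27.1 (3.08 ± 0.26); each overlaps a gene on the other strand, Degs2 and Ppt1. Drebrin, Dbn1, which binds actin filaments at the base of filopodia, had 204 to 263 against 1144 to 1274 (log2 -2.41 ± 0.10, adjusted p = 1.2e-07), and cofilin Cfl1 was lower (-0.66). Among intermediate filaments, peripherin, Prph, of neurons with peripheral axons was at 19.4 to 79.3 CPM against 0.614 to 6.58 (3.77 ± 0.63), and the glial and vascular filament Vim was higher too (2.37 ± 0.39), beside the other-cell markers given above.

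**Figure D5:**
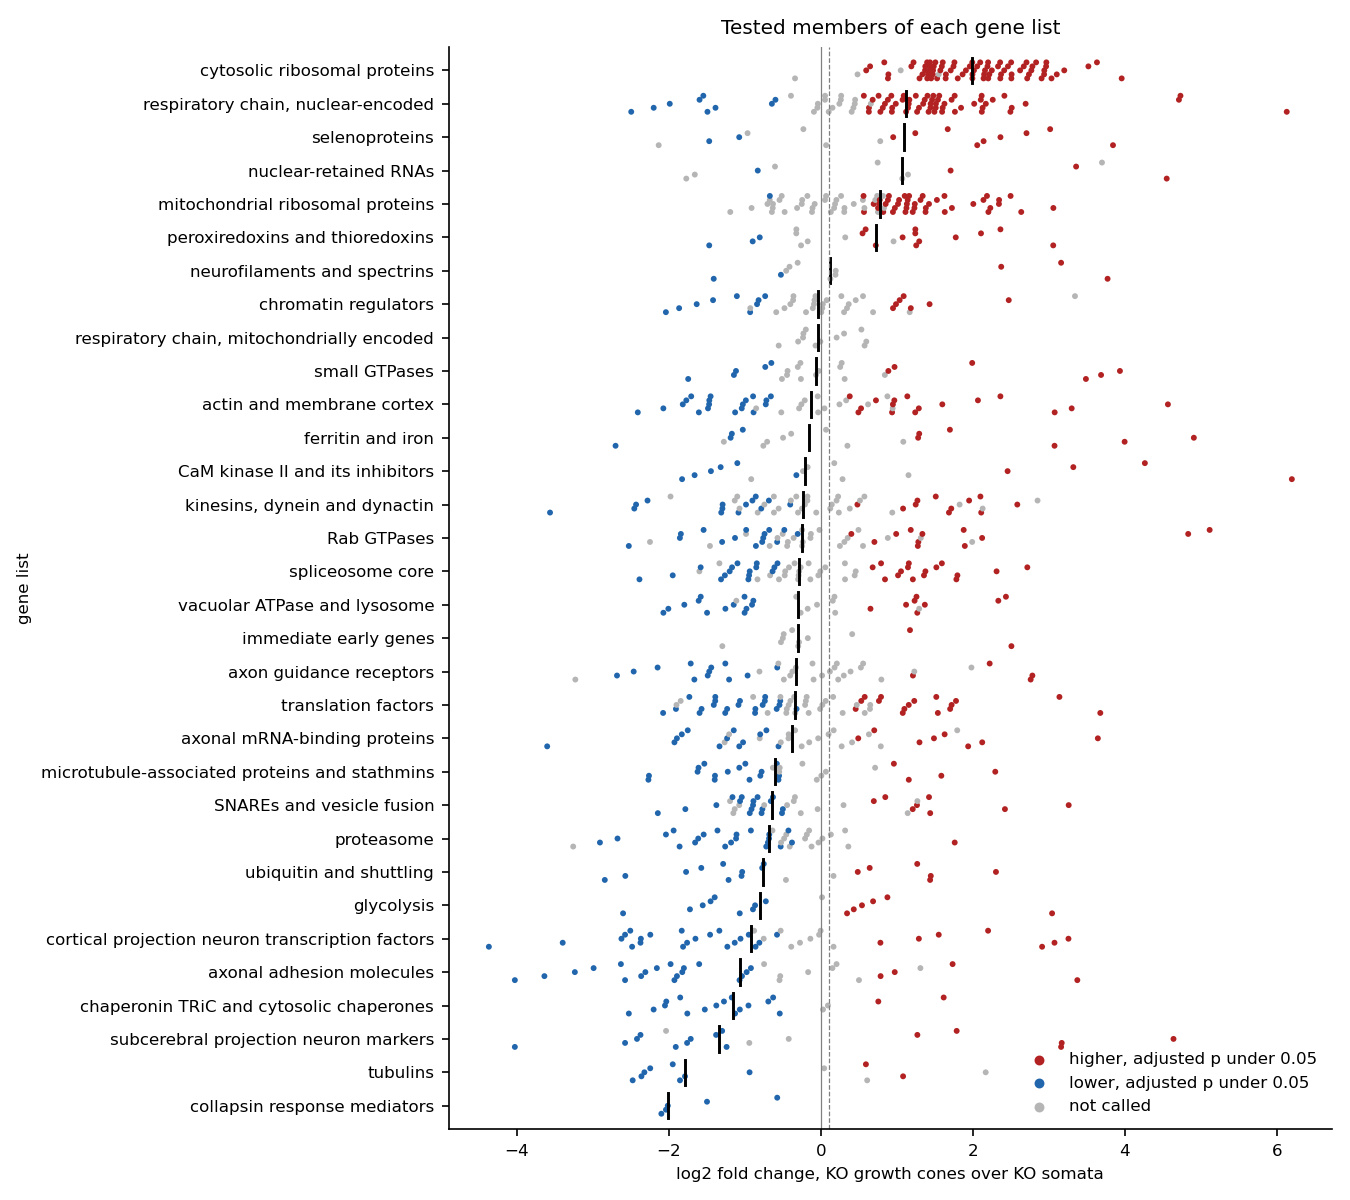
Log2 fold change (KO growth cones over KO somata) of every tested member of the 32 lists that do not mark other cells; red, higher; blue, lower; grey, not called; black bars are list medians and the dashed line is the median of all tested genes. Cytosolic ribosomal proteins have a median of 1.99 and tubulins of -1.79.

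Transport genes changed in both directions. Of 54 tested kinesin, dynein and dynactin genes 11 were higher and 14 lower, shares near or above the 21.6% and 17.0% of all tested genes. Higher were light chains of dynein, Dynll2 (137 to 160 CPM against 33.2 to 57.8, log2 1.69 ± 0.17), Dynll1 (1.51), Dynlt1a (1.72, 1 of several near-identical copies) and Dynlrb1 (1.08), and the depolymerising kinesin Kif2a (2.11 ± 0.18). Lower were the dynactin scaffold Dctn1 (51.3 to 95.7 against 329 to 392, -2.46 ± 0.19), Kif26a (-3.56 ± 0.31), Kif5c (-1.29) and Kif1b (-0.99). Dync1h1, the dynein heavy chain, was not called (0.21 ± 0.23). With length offsets 13 were higher and 9 lower.

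Of 50 tested Rab GTPases 12 were higher and 15 lower. Rab13 had 162, 53.8, 68.1, 52.4 and 23.5 CPM in growth cones against 1.83, 1.23, 1.11, 1.18 and 5.03 in somata (log2 5.12 ± 0.67). Rab4a of recycling endosomes was higher (1.18 ± 0.15), and Rab10 (-1.30 ± 0.13) and Rab31 (-1.86 ± 0.25) were lower. Of 38 fusion genes 17 were lower and 8 higher; with length offsets 11 were lower and 9 higher, and without soma library 22 the higher count was 5. Syt4, a synaptotagmin of dense-core vesicles, was at 131 to 229 against 603 to 895 (-2.15 ± 0.18). The Golgi and endosome SNARE Vti1b was higher, at 751 to 1364 against 165 to 219 (2.42 ± 0.19), with Arg2 on the opposite strand, as was Bet1 (1.44 ± 0.27).

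The vacuolar ATPase and lysosome list divided by length: its 8 higher members had a median of 1260 bases and its 13 lower members 5601. Higher were Lamtor1, an anchor of mTORC1 on the lysosome (log2 2.34 ± 0.20), and the proton pump subunit Atp6v0e (2.44 ± 0.28). Lower were the protease gene Ctsb (-2.07 ± 0.12) and the pump's accessory subunit Atp6ap1 (-2.01 ± 0.14).

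Receptors and adhesion molecules of the axon surface were mostly lower or not called. The list of guidance receptors also holds the ephrin gene Efna3, which encodes a ligand. Of its 37 tested genes 12 were lower and 4 higher, although with length offsets 8 were called in each direction. The neurotrophin receptor Ntrk2 had 44.9, 81.2, 110, 49.1 and 110 CPM in growth cones against 490, 442, 382, 424 and 446 (log2 -2.46 ± 0.26), and the ephrin receptor Ephb1 had 40.6 to 70.3 against 153 to 201 (-1.71 ± 0.19). The netrin receptor Dcc, at 23.6 CPM (SD 2.88) against 5.05 (SD 4.83), was higher (2.22 ± 0.77, adjusted p = 0.0395), as were Efna3 (1.21 ± 0.31), the semaphorin receptor Nrp2 (2.76) and Plxnd1 (2.78 ± 0.84). The higher count of the list fell from 4 to 2 without any 1 of soma libraries 14, 15, 22 and 26 or growth cone libraries 8 to 11. Efna3 was called under all 21 alternatives, and the call of Plxnd1 was lost only without soma library 26. The calls lost in the other omissions were therefore those of Dcc and Nrp2. Of 31 adhesion molecules 19 were lower and 4 higher (13 and 6 with length offsets). L1cam had 122 to 174 CPM against 422 to 640 (-1.93 ± 0.14) and Ncam1 293 to 433 against 1184 to 1362 (-1.80 ± 0.12). Higher were Pcdh10 (1.73 ± 0.23), Nectin1 (3.38 ± 0.64), Alcam (0.79) and Cntnap2 (0.97).

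Large differences with lower counts in growth cones were found in clustered protocadherins, cell-surface recognition proteins whose isoforms are chosen cell by cell. Among protein-coding genes with no overlap of libraries and at least 20 CPM in the higher group, 5 of the 8 lower genes with the largest fold change were of the alpha cluster. Pcdha2 had 16.8, 25.9, 27.9, 13.8 and 31.6 CPM in somata and at most 1 count in any growth cone library, at least 198-fold lower against a floor of 3 counts per library; Pcdha9 was at least 205-fold and Pcdha3 at least 177-fold lower. Pcdhac2 stood at 69.5 to 98.8 CPM in somata and at 0.036 to 0.139 in 4 growth cone libraries, with 3.27 in library 8. The whole family was then summed, a choice made after these values were seen. The alpha cluster summed to 0.279 to 7.97 CPM in growth cones and 233 to 284 in somata, with 11 of 12 tested genes lower. The gamma cluster summed to 1.45 to 39.6 against 213 to 267, with 13 of 17 lower. The beta cluster, whose genes have 1 exon, summed to 43.5 to 90.4 against 164 to 223, with 3 of 18 lower. Alpha and gamma genes share their last exons on 1 strand, so how reads in those exons were assigned bears on each single gene.

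The other 3 of those 8 lower genes were Gabrb2, a GABA-A receptor subunit, Oplah, of the glutathione cycle, and the nucleoside transporter Slc29a3. Gabrb2 had 0.172, 0.15, 7.2, 0.292 and 0.325 CPM in growth cones against 85.5, 107, 143, 126 and 126 in somata (log2 -6.16 ± 1.11). By the same limits the 8 largest differences with higher counts, beside the 3 Hox genes, were the choroid plexus gene Ttr (196 to 354 CPM against 0.0724 to 0.236), the gamma-synuclein gene Sncg (63.3 to 147 against 0.0303 to 0.18), Mab21l2, Car10 and Shisa8. In total, 50 genes had at least 5 CPM in growth cones and at most 3 counts in every soma library. Of these, 13 were of the Hox clusters, the antisense RNA Hoxd3os1 included. The reverse held for 18 genes, 10 of them clustered protocadherins of the alpha or gamma family.

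Proteins that bind axonal mRNA had 8 of 38 tested genes higher and 13 lower. Ybx1 was followed by its relative Ybx3 (370 to 692 CPM against 92.3 to 139, log2 2.12 ± 0.19), whereas the stress granule protein G3bp2 (-1.75 ± 0.17) was lower. The spliceosome, which acts in the nucleus, had 16 of 54 genes higher and 16 lower. Higher were the small ring proteins Lsm5 (35.2 to 87.6 CPM against 9.52 to 12, log2 2.72 ± 0.28), Lsm3 (1.80 ± 0.19), Snrpg (2.31) and Snrpe (1.15). Lower were larger factors, Sf3b3 (37.8 to 59.4 against 213 to 307, -2.39 ± 0.18), Sf3b1 (-1.58) and Prpf19 (-1.31 ± 0.18). The higher members had a median length of 2335 bases and the lower ones 4881, and in the shortest bin all 7 members were higher. With length offsets 13 were higher and 8 lower.

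Of 11 tested RNAs retained in nuclei 3 were higher and 1 lower, where 21.6% and 17.0% of all tested genes were. The median of the list was 1.07, against 0.11 for all tested genes. With length offsets 5 were higher and 0 lower. Malat1 averaged 251 CPM (SD 209) in growth cones and 381 (SD 107) in somata and was not called (adjusted p = 0.373). Peg13 was lower (-0.83 ± 0.18), a call lost with length offsets, and Pantr1 (1.71 ± 0.25) and Snhg11 (4.55 ± 1.05) were higher. Of 40 chromatin regulators 7 were higher and 9 lower (10 and 3 with length offsets), Arid1a (1.43 ± 0.19) and Chd3 (1.09 ± 0.21) among the former and Smarcc1 (-2.04 ± 0.24) and Hdac2 (-0.84 ± 0.14) among the latter. Of 11 tested immediate early genes 2 were higher and 0 lower, the JunD gene Jund (1.17 ± 0.18) and Egr3, the latter lost under several alternatives.

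Transcription factors of cortical projection neurons were mostly lower: 22 of 38 were lower and 7 higher, with a median of -0.91. Sox5, which times deep-layer fate, had 15, 22.1, 18.3, 12.8 and 15.5 CPM in growth cones against 400, 296, 315, 345 and 375 in somata, 20.68-fold lower (log2 -4.37 ± 0.19, adjusted p = 1.2e-07). Mef2c had 208, 268, 289, 217 and 203 against 2691, 2267, 2350, 2279 and 2911 (log2 -3.40 ± 0.15). Lmo4, a LIM-only cofactor, went the other way, at 372, 418, 540, 416 and 415 against 55.9, 43.6, 52.8, 69.1 and 34.9 (log2 3.07 ± 0.20). Cux1 (1.55 ± 0.18), Cux2 (3.26 ± 1.06), Lhx2 (2.91), Emx1 (2.20), Nr4a2 (1.29) and Nfia (0.78) were the other higher members. Tbr1 was not called (-0.88, adjusted p = 0.123).

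Markers of subcerebral projection neurons followed with 10 of 18 tested genes lower and 5 higher. Lower were Ldb2 (60.8 to 143 CPM against 455 to 590, log2 -2.37 ± 0.21), Etv1 (-2.58) and Fezf2 (-1.76). Higher were Pcp4, a calmodulin-binding peptide, with 296, 262, 330, 115 and 457 CPM against 12, 14.6, 10.3, 11.4 and 10.2 (log2 4.64 ± 0.34), Thy1 (3.17 ± 0.39), the heavy neurofilament Nefh (3.16), Igfbp4 (1.79) and Crym (1.27). Several of these 5 are also expressed by neurons of brainstem and spinal cord, whose markers were higher in the same libraries. Whether such neurons contributed to these 5 differences was not tested.

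Signalling genes held some large single differences. Camk2n2, an inhibitor of CaM kinase II, had 291, 303, 250, 233 and 319 CPM in growth cones against 2.85, 4.96, 2.78, 5.74 and 2.61 in somata, 73.47-fold higher (log2 6.20 ± 0.29, adjusted p = 1.2e-07). The second inhibitor, Camk2n1, had 146, 234, 247, 244 and 256 against 14.3, 14.5, 9.82, 12.7 and 7.18 (log2 4.26 ± 0.26). Of the kinase subunits, Camk2d (3.32) and Camk2g (2.46) were higher, Camk2b was lower (-1.83 ± 0.25) and Camk2a was not called (1.15). The kinases Camk4 (-1.45), Camkk2 (-1.32) and Camk1d (-1.10) and the pseudokinase Camkv (-1.66 ± 0.21) were lower.

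Of 23 tested genes of small GTPases of the actin cytoskeleton and their partners 6 were higher and 5 lower. Rnd2, a constitutively GTP-bound member, had 501, 299, 373, 422 and 508 CPM against 26.6, 26.9, 30, 42.1 and 37.5 (log2 3.69 ± 0.21), and the GDP dissociation inhibitor Arhgdig had 1058 to 1724 against 309 to 425 (1.99 ± 0.15); Vat1 and Rgs11 lie on their opposite strands. Rhog (3.94) and Rhoc (3.49) were higher, and Rac1 (-1.12), Cdc42 (-0.73) and their effector kinases Pak1 (-1.14 ± 0.12) and Pak3 (-1.75 ± 0.16) were lower.

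Of 21 peroxiredoxin and thioredoxin genes 12 were higher and 3 lower, and of 16 selenoprotein genes 9 were higher and 2 lower, with Gpx4 and Txnrd1 in both lists. Gpx4, which removes lipid peroxides, had 531 to 1068 CPM against 153 to 189 (log2 2.36 ± 0.18), and Selenom had 118 to 362 against 13.6 to 21.3 (3.84 ± 0.29). Gstm5 was higher (2.11 ± 0.24), and Prdx1 (-0.90 ± 0.18) and Txnrd1 (-1.47 ± 0.27) were lower, the last not with length offsets.

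Whether these differences depended on genotype was asked with the interaction of compartment and genotype over all 20 libraries. Of 17645 genes tested 7 were called (0.0397%), and 1231 had an unadjusted p under 0.05. None of the members of the 42 lists was among the 7. The interaction was 0.01 for Ftl1 (95% interval -0.46 to 0.48), 0.19 for Fth1 (-0.29 to 0.67) and 0.14 for Tuba1a (-0.27 to 0.54), so for these genes the intervals exclude a change of the compartment difference by 2-fold. Over the 81 tested cytosolic ribosomal protein genes the interaction ran from -0.52 to 0.32, with 0 genes at an unadjusted p under 0.05. Cortical transcription factors had 10 of 38 at an unadjusted p under 0.05, and subcerebral projection neuron markers 6 of 19, none of them called after adjustment. In WT libraries Ftl1 had 23876 CPM (SD 2708) in growth cones and 1591 (SD 233) in somata, and Tuba1a had 7089 (SD 440) and 31779 (SD 4576).

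The 7 genes whose compartment difference differed were Rprm, Cxxc5, Cck, Morn5, Eln, Egln3 and Pid1. Rprm, a p53 target that halts the cell cycle, was lower in growth cones in both genotypes, by more in the libraries labelled KO (97.5 CPM in growth cones and 542 in somata labelled KO, 146 and 304 in WT; interaction -1.42 ± 0.20, adjusted p = 0.0097). Cck, the cholecystokinin peptide gene, stood at 109 and 68.9 CPM in growth cones and somata labelled KO and at 125 and 17.1 in WT (interaction -2.21 ± 0.34, adjusted p = 0.0121). Cxxc5 (-2.72 ± 0.42) likewise had higher counts in growth cones than in somata in both genotypes, and higher counts in somata labelled KO than in WT somata. Elastin, Eln, stood at 23.9 and 45.7 CPM in growth cones and somata labelled KO and at 29.8 and 6.36 in WT (-3.17 ± 0.50), and its call was lost with limma-voom and without soma library 14 of either genotype. Egln3, a prolyl hydroxylase that marks HIF for decay, was higher in growth cones labelled KO and lower in those of WT, at 15.9 and 2.34 CPM in growth cones and somata labelled KO and 1.68 and 18.4 in WT (interaction 6.20 ± 1.04, adjusted p = 0.0257). Pid1 (2.09 ± 0.37, adjusted p = 0.0425) differed mainly in somata, at 20.2 CPM labelled KO and 77.2 in WT. The call of Pid1 was lost under 17 of 27 alternatives and that of Egln3 under 6, and with the replicate number as a block none of the 7 was called. Morn5 was at 0 in the 5 growth cone libraries labelled KO and at 3.99 CPM (SD 2.93) in WT growth cones. It was called lower in growth cones than in somata labelled KO (adjusted p = 0.000139), also under all 21 alternatives. With growth cones labelled KO at 0, the size of its fold and of its interaction is uncertain.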

How the data were processed

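RNA of somata and growth cones was measured in 20 libraries, 5 per group. The deposited table holds raw read counts per gene with a gene length. The submitters' processing notes name Trimmomatic 0.39, STAR 2.7.1a, featureCounts 1.5.0 and GRCm39. The gene coordinates in the table equal GENCODE release M21 (GRCm38) exons for 54435 of 55487 genes (98.1%), so coordinates are given as GRCm38. Use of strand in counting is not given in the sources used here. Symbols were found for 55227 genes.

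Counts were tested in R 4.3.3 with edgeR 4.0.16 (TMM, filterByExpr with a minimum count of 10, quasi-likelihood F test, FDR 0.05), tested first on simulated data. Single measures had exact permutation tests with a Benjamini-Hochberg adjustment over 6. TPM used the table's lengths. DESeq2 1.42.0, limma 3.58.1, other scalings and filters, length offsets, and each library left out were alternatives. Named genes were Bcl11b, the 8 called genes per direction with the highest TPM (at least 2-fold, no overlap of libraries) and the 8 protein-coding ones with the largest change (no overlap, at least 20 CPM in the higher group), the 2 per direction and list with the lowest p, level genes and genes called in the interaction, symbols that are only identifiers being skipped; others were chosen after their values were seen. The gene lists and the comparison were chosen with earlier results of these data known. No pair of replicates agreed within sampling noise (smallest chi-square per degree of freedom 71.3). Same-numbered KO and WT deviations correlated at 0.00523 to 0.105 in growth cones and -0.000197 to 0.161 in somata, not over 0.1 in every pair. The main interaction used no block for the replicate number, although weak correlations cannot show that the libraries were unpaired.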

Additional observations from a re-analysis of the deposited data

Results flagged for a closer look

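Of 316 groups of 5 values examined, 22 held a library that stood apart from the other 4. Its gap to the nearest was over 0.71 of the group's range. About 1 in 20 groups would pass that limit by chance if values were normally distributed. CPM were used here without a log transform, so that rate is only a guide. In growth cones, library 10 stood highest in TPM-weighted median gene length (2242 bases, the others 1713 to 1840) and in Cux1 (170.3 CPM, the others 110 to 125), and lowest in Lsm5 (35.2 CPM, the others 73.1 to 87.6). Library 9 stood highest in Gabrb2 (7.20 CPM, the others 0.15 to 0.325), Pcdha12 (1.83 CPM, the others up to 0.113) and Lmo4 (540 CPM, the others 372 to 418). Library 8 stood highest in Pcdhac2 (3.27 CPM) and Arid1a (172 CPM), library 11 in Hspa8 (594 CPM), and library 7 was lowest in Camk2n1 (146 CPM). Library 11 was also flagged in Pcdha2 (0.0464 CPM, the others at 0), which is 1 count, so this flag carries no weight.

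Among somata, library 26 stood highest in Dpysl3 (2846 CPM) and Rab13 (5.03 CPM, the others 1.11 to 1.83) and lowest in Eif1b (60.2 CPM) and Selenom (13.6 CPM). Library 25 stood highest in Pcdhac2 (98.8 CPM), Cap1 (27.1 CPM) and Car2 (7.14 CPM, the others 1.43 to 1.94) and lowest in Camk2b (732 CPM). Library 22 stood highest in Tmsb10 (407 CPM) and Marcksl1 (2477 CPM), and library 14 was lowest in Ldha (1011 CPM).

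The difference between compartments differed between genotypes, by edgeR's test of the interaction, for 7 genes. The log2 interaction, KO minus WT, was -1.42 for Rprm, -2.72 for Cxxc5, -2.21 for Cck, -3.17 for Eln, -10.35 for Morn5, 6.20 for Egln3 and 2.09 for Pid1.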

How the results depend on the processing

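Calls between compartments ran from 5096 (length offsets) to 7250 (limma-voom) over 21 alternatives, against 5948, and from 5311 to 6449 with 1 library left out. Of the calls, 56.0% were higher in growth cones, 64.0% under upper-quartile scaling, which moved the median of all genes by 0.20; list medians within that of 0 give no direction. Of 172 named genes, 169 were called, 151 under every alternative and 17 not under at least 1; Cck turned to -0.13 with length offsets. The interaction had 7 calls, 262 with the DESeq2 Wald test, 5 with limma-voom, and 5 to 12 with 1 library left out (11 without KO growth cones 7, 12 without WT growth cones 7). With the replicate number as a block it had 0 edgeR calls, 908 genes having an unadjusted p under 0.05. Whether same-numbered libraries were paired in the experiment is not known. The cause of these shifts was not tested. Leaving out 1 library, the difference in mitochondrially encoded share ran from -0.071 to 0.00975 percentage points, turning to 0.00057 without growth cone library 8 and 0.00975 without 10; that in the share of the 50 most abundant genes ran from 1.41 to 2.76 points, passing an exact permutation p under 0.05 without library 8 (0.0476) or 10 (0.0238). Genes near the floor of 3 counts per library have uncertain folds.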
